A study of Mus musculus with 4 samples.

Results

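Peritoneal macrophages of Setdb1 KO mice were compared with those of WT mice without stimulation, on the array of KO macrophages given vehicle and the array of WT macrophages given vehicle. These are 2 of the 4 arrays of the study, which also measured both genotypes after 4 h of lipid A, the active part of lipopolysaccharide. KO mice were LysM Cre/+:Setdb1 fl/fl, in which Cre recombinase made from the lysozyme M locus deletes Setdb1 in macrophages and other myeloid cells, and WT mice were +/+:Setdb1 fl/fl, which carry the floxed alleles but no Cre. The strain label of each array is C57BL6/J, vehicle was given for 4 h, and neither the age of the mice nor any pooling of mice is stated in the labels or methods. The cells were exudate cells that an injection of thioglycollate draws into the peritoneal cavity, of which those attached to the dish were used. All genes named by 1 symbol were compared, 18193 in number, and 12002 of them were detected under vehicle.

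Setdb1 places methyl groups on lysine 9 of histone H3 (H3K9), a mark of silenced chromatin. It is brought to its sites by Trim28 and zinc finger proteins and works with Atf7ip, and it is best known for silencing endogenous retroviruses, germline genes and the protocadherin cluster. A macrophage at rest transcribes its lysosomal, lipid handling and surface receptor genes at a high level and keeps most chemokine, cytokine and interferon-stimulated genes low until a Toll-like receptor is engaged. The exudate raised by thioglycollate holds mostly macrophages that descend from blood monocytes, beside resident large peritoneal macrophages, which depend on the transcription factor Gata6, and B cells of the cavity.

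Each condition had 1 array, so no difference below has a replicate check, no test was made, and the spread between mice is not known. Values are linear signals of probe sets, and each gene was read from the brightest of its probe sets, by mean log2 signal of the 4 arrays. A signal below the median of its array (65.1 in WT vehicle, 84.2 in KO vehicle) was treated as background and raised to that median. A gene counted as detected when its higher signal reached the median of that array, and a fold against a raised signal is a lower bound, written as "at least". Such a gene is counted as past 2-fold or 3-fold when its bound is, so a gene not counted may still differ by more. These medians lie 0.37 apart on the log2 scale, whereas those of the lipid A arrays lie 0.019 apart. Log2 differences are given as KO minus WT throughout. Their median was 0.13 for the detected genes and 0.09 for the 9872 of them that reached the median of each vehicle array. For 486 detected genes, raising the weaker signal turned the sign of the difference, and no fold is read from such genes. Their raised values do enter the medians of lists and neighbours. Different probe sets of 1 gene disagreed in their log2 difference with an SD of 0.41 over 4413 genes, which is 1.33-fold. That is a spread within the vehicle arrays and holds no spread between mice, and its technical part was not set apart. The 3' over 5' signal ratio, which increases as RNA degrades, was 2.19 in KO vehicle and 2.00 in WT vehicle for actin, and 1.35 and 0.945 for Gapdh. The part of RNA quality in the differences below was not tested.

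Setdb1 itself gave 589 in WT and 346 in KO under vehicle, and 521 and 386 under lipid A. The KO array was thus the lower one of each pair, by 1.70-fold without stimulation. The position of this probe set relative to the deleted exons is not known here, so the value is no check of the genotype. Lyz2, the lysozyme gene whose locus carries Cre, gave 75503 in WT vehicle and 64032 in KO vehicle. Over all detected genes, 5.22% were over 2-fold higher in KO vehicle and 2.06% were over 2-fold lower, and these shares stand behind each count of neighbours or list members that follows. Of the 20 measured genes on each side of Setdb1, 33 were detected, and the median of their log2 differences was 0.15. Among these neighbours Ecm1, an extracellular matrix protein gene, was 2.43-fold higher in KO, and Sema6c, a semaphorin gene, was at least 2.11-fold lower. In the lipid A pair Ecm1 and Sema6c had log2 differences of 1.02 and 1.07, so that Sema6c was higher in KO there. Of the 40 neighbours of Lyz2, 25 were detected with a median of 0.05, of which 4 were over 2-fold higher and 1 was lower. The largest difference measured among these was that of Hmga2, which encodes a chromatin protein of embryonic cells, with 148 (WT) and 729.8 (KO) under vehicle and 66.2 and 605 under lipid A. The others were Mdm1 (2.52-fold), Tspan8 (at least 2.20-fold) and 1700006J14Rik (at least 3.23-fold) on the higher side and Irak3 (2.08-fold), an inhibitor of Toll-like receptor signaling, on the lower side. In the lipid A pair Mdm1, Tspan8 and 1700006J14Rik had log2 differences of -0.86, -0.18 and 0.12.

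The partners of Setdb1 and the other H3K9 and DNA methylation genes differed little. Of 17 detected members, 2 were over 2-fold higher in KO and 0 were lower, and their median log2 difference was 0.16, or -0.21 with arrays centred on all probe sets. Atf7ip, the protein that stabilizes Setdb1, gave 1086 (WT) and 2205 (KO) under vehicle and 559 and 1233 under lipid A, so that it was higher in KO in each pair. Cbx3, an H3K9 reader, was at least 2.16-fold higher from signals of 47.5 and 141. Mphosph8 and Morc2a, which act with Setdb1 in silencing, were 1.65-fold and 1.58-fold higher, and Dnmt3a, a DNA methyltransferase, was 1.39-fold lower. The genes known as Setdb1 targets in other cells stayed at background for the most part. None of 21 measured protocadherin beta genes was detected, nor any of 3 measured genes derived from retroelements, and 8 of 21 germline genes were. Sycp3 and Dazl, meiotic and germ cell genes, reached 141 and 141 in KO vehicle from background in WT vehicle, or at least 2.16-fold each. Under lipid A, Sycp3 gave 58.2 (WT, at background) and 99.2 (KO), and Dazl was below the median on both arrays. Of 247 detected genes of the Zfp family, 4 were over 2-fold higher and 8 were lower. Zfp760 (312 against 97.2) and Zfp995 (1383 against 487) were the lowest in KO, and both were within 2-fold in the lipid A pair.

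Without stimulation, 145 genes (1.21% of the detected genes) were over 3-fold higher in KO and 75 (0.625%) were over 3-fold lower, whereas 92.7% of the detected genes passed 2-fold in neither direction. Of the 145 genes, 51 had a background signal in WT vehicle, as 9 of the 75 had in KO vehicle. The balance of the 2 directions hung on the array scaling. With each array centred on the median of all its probe sets, which lowers each log2 difference by the 0.37 above, 70 genes were over 3-fold higher and 145 lower, and with quantile normalization 87 and 84. The 70 were all among the 145 reported as higher, and the 75 lower genes were all among those lower under that centring. Just inside the threshold lay Drd4 at 3.01-fold and S100a8 at 3.03-fold, and just outside it Psd3 at 2.98-fold and Pilrb1 at 2.95-fold. The higher genes lay at low signals, with a median of 87.7 in WT and 403 in KO, as the scatter of KO against WT signals shows. The lower genes had a median of 1643 in WT and 309 in KO.

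**Figure D1:**
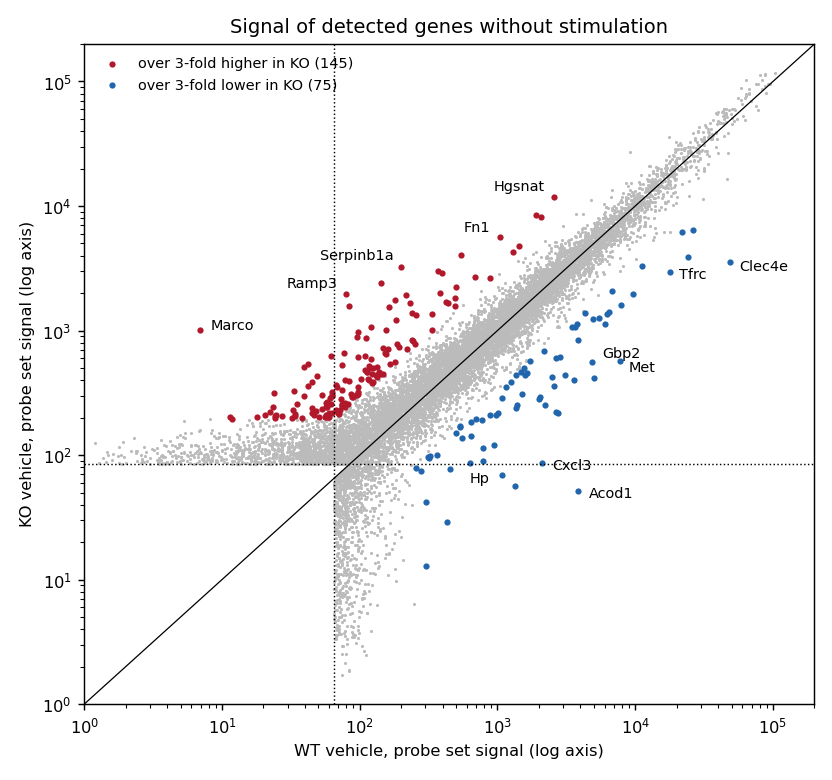
Signal of the 12002 detected genes in WT vehicle (x axis) and KO vehicle (y axis), both on log axes, with 1 grey point per gene, red points for the 145 genes over 3-fold higher in KO and blue points for the 75 over 3-fold lower. Dotted lines are the array medians of 65.1 and 84.2, below which a signal was treated as background. In WT vehicle the blue points reach from Clec4e at 48726 down to Morrbid at 258.

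The genes farthest above WT included accessory receptor, protease and cell cycle genes beside genes of B cells. Ramp3, a partner protein of the receptors for adrenomedullin and calcitonin peptides, had the largest difference not set by background, with 79.8 in WT and 1979 in KO under vehicle, or 24.8-fold. Under lipid A its signals of 90.3 in WT and 1399 in KO kept the same order, so that both KO arrays were high and both WT arrays near background. Plac8, a small cysteine-rich protein of immune cells, was 18.7-fold higher (83.9 against 1569.8). Serpinb1a, an inhibitor of neutrophil proteases, was 16.2-fold higher (199 against 3226), with 5.47-fold from its other detected probe set. Cdkn2a, which encodes the cell cycle inhibitor p16 and the p53 activator Arf, gave 164 (WT) and 1545 (KO) under vehicle and 204 and 980.4 under lipid A. Prg4, the secreted lubricin, and Clec10a, a galactose-binding lectin, were 8.91-fold and 8.86-fold higher. Fabp7, a fatty acid binding protein, was 7.41-fold higher and Mmp13, a collagenase, 7.34-fold. Pomk, a kinase that acts on the sugar chain of dystroglycan, was 8.11-fold higher (368 against 2985), with 8.04-fold from its other probe set. It was 2.46-fold higher in the lipid A pair. Rasgrp3, an activator of Ras, was 7.87-fold higher under vehicle and 1.61-fold under lipid A.

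Among genes that were at background in WT vehicle, Marco, a scavenger receptor, was at least 15.6-fold higher (6.88 against 1015), with at least 2.95-fold from its other probe set. It was followed by the B cell adaptor Bank1 (at least 9.51-fold), the immunoglobulin segment Iglv1 (at least 8.30-fold) and the adhesion receptor Selp (at least 7.80-fold). The others of the 10 largest bounds were Btla, a lymphocyte inhibitory receptor (at least 6.59-fold), Pmf1, a kinetochore protein gene (at least 5.90-fold), the lymphoid factor Ikzf3 (at least 5.48-fold), Engase, which trims sugar chains (at least 5.04-fold), Padi2, which converts arginine to citrulline (at least 4.96-fold), and the immediate early factor Egr3 (at least 4.82-fold). Engase and Padi2 were within 2-fold in the lipid A pair, with log2 differences of 0.19 and -0.15.

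**Figure D2:**
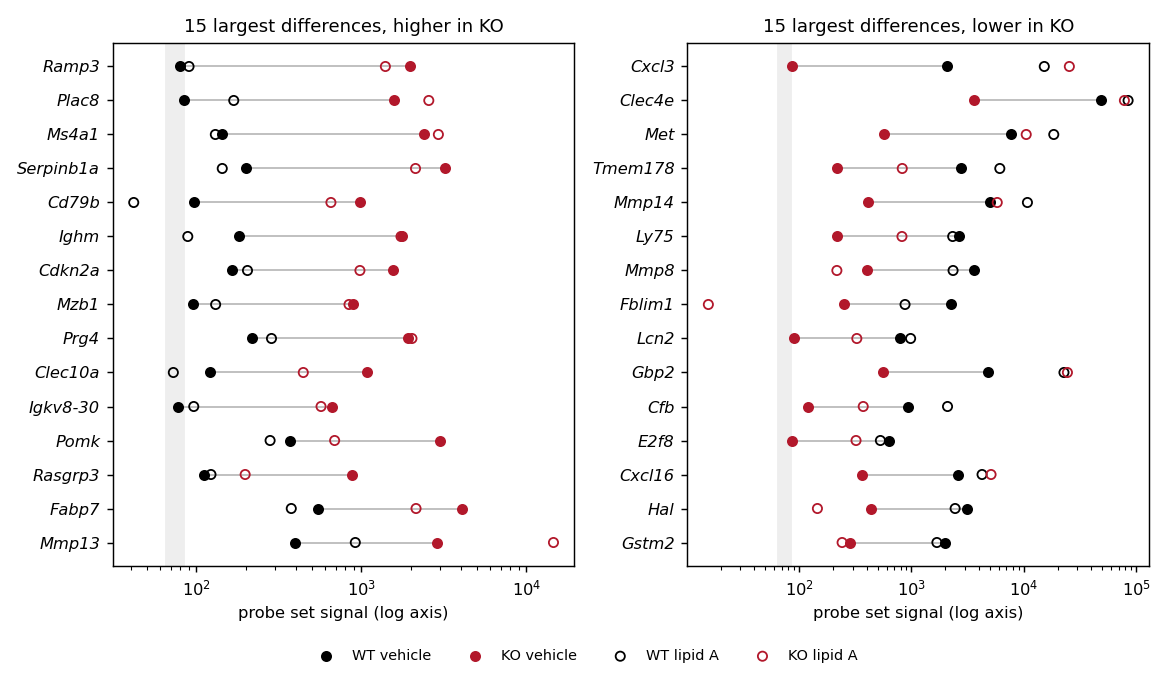
Signal of the 15 genes with the largest difference in each direction among genes at or above the median of both vehicle arrays (x axis, log scale), with filled points for vehicle, open points for lipid A, black for WT and red for KO. The grey band spans the array medians from 65.1 to 84.2, the left panel has the KO points of each gene on the right of its WT points, and in the right panel Cxcl3, Clec4e, Gbp2 and Cxcl16 have their lipid A points within 2-fold of each other and above both vehicle points.

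Markers of cell types were read next, since the cells were an exudate enriched by adhesion. Genes of macrophage identity were at a high level on both arrays. Of 22 detected members of 23 measured, 0 passed 2-fold upward in KO and 2 downward. Their median was 0.06 (-0.31 with arrays centred on all probe sets), and the summed signal was 588257 (WT) and 653432 (KO). The 2 lower genes were Adgre1, which encodes F4/80, with 10187 against 3726, and C1qb, a complement component, with 1469 against 551. Genes of resident large peritoneal macrophages were higher in KO. Of 16 detected members of 19 measured, 10 passed 2-fold upward in KO and 1 downward. The median was 1.99 and lay between 1.34 and 2.18 over the 9 settings of the analysis. Gata6 gave 114 (WT) and 406 (KO) under vehicle and 26.9 and 231 under lipid A. Fn1 (fibronectin) was 5.44-fold higher, with at least 1.96-fold from its other probe set, Vsig4, a complement receptor, 5.18-fold, and Tgfb2 5.19-fold. Timd4, a defining receptor of these cells, was below the median on all 4 arrays, and Serpinb2 was 3.27-fold lower in KO vehicle. The members at high signal, such as Cd9 (35743 against 41279) and F10 (6557 against 7304), were within 2-fold, so that the summed signal was 56268 (WT) and 67888 (KO).

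B cell genes were higher in KO as well. Of 14 detected members of 16 measured, 8 were over 2-fold higher and 0 were lower, with a median of 1.99 (1.62 to 2.59 over the 9 settings). Ms4a1, which encodes CD20, gave 143 and 2399, Cd79b, a chain of the B cell receptor, 97.4 and 976, and Ighm, the immunoglobulin M heavy chain, 180.3 and 1760.3, in WT and KO vehicle. The immunoglobulin segment Igkv8-30, in no list, was 8.60-fold higher. The other 4 detected probe sets of Ighm gave a median of 1.62-fold, with background signals among them raised. Cd79a and Pax5, which define B cells, were at background in WT vehicle and reached 107 and 105 in KO vehicle. Blnk and Cd22, members at 9585 and 1949 in WT vehicle, were 1.26-fold and 1.20-fold lower in KO. The list summed to 12646 (WT) and 17507 (KO). Plasma cell genes were divided, with 4 of 7 detected, a median of -0.10 and a summed signal of 9720 (WT) and 5808 (KO). Among them the chaperone Mzb1 was 9.33-fold higher, and the syndecan Sdc1 and the factor Prdm1 were 2.01-fold and 1.79-fold lower. Of the 145 genes over 3-fold higher, 26 were in a marker list and 101 in no list of any kind. Of the 75 genes over 3-fold lower, 8 were in a marker list and 42 in no list. The 26 included 10 of the 16 detected genes of resident large peritoneal macrophages and 8 of the 14 of B cells. Over all detected genes, 1.21% were over 3-fold higher. In a bulk sample, more cells of a type and more RNA per cell cannot be told apart.

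Of 10 detected genes of small peritoneal macrophages and dendritic cells, 4 passed 2-fold upward and 0 downward, with Cd209a at 22.3 (WT) and 223 (KO). Monocyte genes were divided, with 2 of 9 over 2-fold higher, which were Plac8 and the calcium-binding protein S100a4, and 3 lower, which were Hp, the chitinase-like Chil3 (1643 against 458) and the ficolin Fcnb (at least 2.04-fold). The T cell list had 4 of 9 detected members over 2-fold higher, all 4 from background in WT vehicle, of which Cd3d was highest with 287 in KO vehicle. Cd3e, Cd4 and Cd8a were below the median on both vehicle arrays, as were all 11 measured NK cell genes. In the other direction, 5 of 13 detected neutrophil genes were over 2-fold lower in KO and 0 were higher. Their median was 0.04, or -1.60 with signals as measured, and ranged from -2.36 to 0.28 over the settings. Fpr2, a formyl peptide receptor, was at least 16.0-fold lower (1344 against 56.6), the collagenase Mmp8 9.01-fold (3599 against 399), Lcn2, which binds bacterial siderophores, 8.69-fold, and the calprotectin chain S100a8 3.03-fold. S100a9, the partner of S100a8, was below the median on all 4 arrays, Csf3r was 1.44-fold higher in KO, and the list summed to 8852 (WT) and 2972 (KO). Of 13 detected fibroblast genes, 3 were over 2-fold lower, among them Dcn (decorin) with 553 against 138, and their summed signal was 4646 and 2705. The Y-linked genes Uty, Kdm5d and Eif2s3y were detected on all 4 arrays and lower in KO vehicle, by 2.66-fold, 2.66-fold and 1.48-fold, and Xist, expressed from the inactive X chromosome, was below the median on all 4. The part of these marker differences in the results below was not tested.

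**Figure D3:**
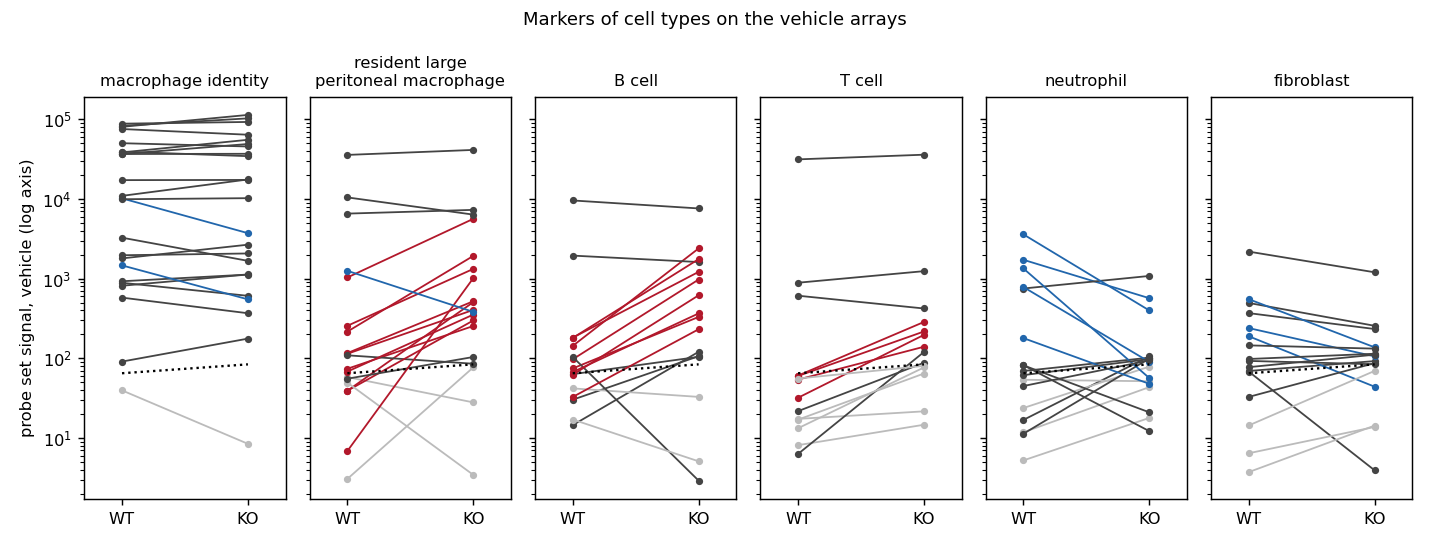
Signal of each measured member of 6 marker lists in WT vehicle and KO vehicle (y axis, log scale), with 1 line per gene, red for detected genes over 2-fold higher in KO, blue for over 2-fold lower, dark grey for within 2-fold and light grey for not detected. The dotted line joins the medians of the 2 arrays. Red lines are 10 resident large peritoneal macrophage, 8 B cell and 4 T cell genes. Blue lines are 5 neutrophil, 3 fibroblast, 2 macrophage identity and 1 resident large peritoneal macrophage genes.

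The genes farthest below WT included chemokines, pattern recognition receptors and an enzyme of the macrophage response to bacterial products. Acod1, which makes the antimicrobial metabolite itaconate, gave 3839 in WT and a background signal of 51.4 in KO, or at least 45.6-fold lower. Under lipid A both arrays were high and near each other, at 48029.5 in WT and 49219.7 in KO. Clec4e, the receptor Mincle for mycobacterial glycolipids, was 13.6-fold lower (48726 against 3573), with 29.6-fold from its other probe set. Its lipid A signals of 84688 and 78521 were again close. Cxcl3, a chemokine that attracts neutrophils, was near the array median in KO, with 2090.1 (WT) and 86.5 (KO), or 24.2-fold. Cxcl16, which is both a chemokine and a scavenger receptor, was 7.17-fold lower, and Cxcl2, a close relative of Cxcl3, 5.95-fold (2501 against 420.5). Cxcl5 was at least 2.93-fold lower and Ccl5 5.64-fold, whereas Ccl3 and Ccl4 were 1.19-fold lower and 1.55-fold higher. Of 8 detected CXC chemokines, 4 were thus over 2-fold lower and 0 higher (median -1.12, and between -2.06 and -1.12 over the settings), and of 7 CC chemokines 1 and 0 (median -0.06).

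Receptors and regulators of the Toll-like receptor and NF-κB pathways followed in part. Tlr2, the receptor of bacterial lipoproteins, gave 3809 and 833, and its partner Tlr1 826 and 315, in WT and KO vehicle, whereas Cd14 and Myd88 were 1.03-fold and 1.25-fold higher in KO. Of 21 detected members of the pathway, 3 were over 2-fold lower and 0 higher. Of 15 genes of NF-κB and its inhibitors, 4 were lower and 0 higher, namely Nfkbiz, a nuclear cofactor of NF-κB (4.16-fold), Nfkb2 (at least 2.83-fold), the kinase Ikbke (2.72-fold) and Traf1 (at least 2.10-fold). The other 2 detected probe sets of Nfkbiz gave a median of 1.20-fold lower, with background raised. Nfkbia and Tnfaip3, inhibitors that NF-κB itself induces, were 1.07-fold and 1.27-fold higher. Icam1, an adhesion receptor, gave 1013 and 216, and Socs3, an inhibitor of cytokine signaling, 545 and 195. Of 13 detected cytokine genes of 20 measured, none passed 2-fold, and their median was 0.11 (-0.26 with arrays centred on all probe sets). Of these Il1a gave 426 and 224 and Tnf 516 and 316. Il6 had 2.18 in WT vehicle and 108 in KO vehicle, the former at background, so that it was at least 1.66-fold higher.

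Interferon-stimulated genes were lower in KO, with 11 of 28 detected members over 2-fold lower, 0 higher and a median of -0.57 (-0.94 to -0.54 over the settings). Zbp1, a sensor of nucleic acids, gave 645 and 141, Rtp4 1575 and 440.1, and Bst2, which tethers budding virus, 3489 and 1070.3, in WT and KO vehicle. The other detected probe set of Zbp1 gave 1.15-fold lower. Ifit2 was at background in KO vehicle and at least 3.59-fold lower. Of 9 detected interferon-inducible GTPases, which attack vacuoles of intracellular microbes, 4 were over 2-fold lower and 0 higher, with a median of -0.96. Gbp2 was the lowest at 4816 against 561, or 8.58-fold, with 5.74-fold from its other probe set, and Gbp3 and Irgm1 were 2.69-fold and 2.50-fold lower. The other 17 interferon-stimulated genes and 5 GTPases passed 2-fold in neither direction. They included Ifitm3 (1.20-fold higher), Oasl1 (1.87-fold higher), Igtp (1.21-fold higher) and Gbp8 (at least 1.61-fold higher). The genes of antigen presentation by MHC class I, many of which interferon also raises, lay within 2-fold except Tapbp, which loads peptides (2.06-fold lower), and their median was -0.13.

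The upstream sequences of 4 lower genes are given because they hold the motif of the factor that their group is known to follow. They are the 250 bases before the gene start in RefSeq (GRCm38.p6), 5' to 3' in the direction of the gene, with an NF-κB motif in capitals for the chemokine genes Cxcl3 and Cxcl2, and an interferon response element (ISRE, searched as GAAA, any 2 bases and GAAA on either strand) in capitals for Gbp2 and Bst2.
Cxcl3 (chr5:90785851-90786100, + strand): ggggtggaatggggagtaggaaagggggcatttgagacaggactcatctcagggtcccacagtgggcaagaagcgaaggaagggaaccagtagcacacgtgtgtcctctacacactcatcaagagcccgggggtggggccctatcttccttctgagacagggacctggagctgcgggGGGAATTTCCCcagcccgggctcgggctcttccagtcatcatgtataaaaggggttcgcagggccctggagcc
Cxcl2 (chr5:90903649-90903898, + strand): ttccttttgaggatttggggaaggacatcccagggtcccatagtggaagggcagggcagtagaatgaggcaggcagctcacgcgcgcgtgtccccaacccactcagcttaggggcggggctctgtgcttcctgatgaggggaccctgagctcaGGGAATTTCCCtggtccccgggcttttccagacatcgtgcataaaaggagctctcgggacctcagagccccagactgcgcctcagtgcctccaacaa
Gbp2 (chr3:142620413-142620662, + strand): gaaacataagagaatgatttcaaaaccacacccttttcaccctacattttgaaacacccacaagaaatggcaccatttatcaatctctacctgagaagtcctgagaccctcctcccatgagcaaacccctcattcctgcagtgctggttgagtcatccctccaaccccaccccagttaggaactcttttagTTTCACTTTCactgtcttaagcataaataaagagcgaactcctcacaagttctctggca
Bst2 (chr8:71537473-71537722, - strand): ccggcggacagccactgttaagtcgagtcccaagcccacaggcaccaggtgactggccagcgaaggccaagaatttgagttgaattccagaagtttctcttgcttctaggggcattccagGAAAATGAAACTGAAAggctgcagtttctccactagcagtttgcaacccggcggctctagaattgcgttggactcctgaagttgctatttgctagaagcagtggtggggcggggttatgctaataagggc
The capitals of Cxcl3 and Cxcl2 each hold 2 overlapping matches to the NF-κB motif, on opposite strands, and end 62 and 86 bases before the gene start. The ISRE of Gbp2 ends 49 bases before it, and Bst2 has a pair of overlapping matches that end 114 bases before it. Among other lower genes searched, Nfkbiz and Icam1 (NF-κB) and Rtp4, Irf7 and Zbp1 (ISRE) had no match or no RefSeq window. RefSeq windows were matched for 62 of the 75 lower genes and 102 of the 145 higher genes. An NF-κB motif was held by 5 of the 62 (8.06%) and 8 of the 102 (7.84%), beside 5.39% of the 9758 detected genes with such a window, 4.46% of all 27025 genes and 3.90% of all windows. An ISRE was held by 3 (4.84%) and 5 (4.90%), beside 3.15% of the detected genes, 3.46% of all genes and 2.98% of the windows. CACGTG, searched as a further motif, was held by 5 (8.06%) and 7 (6.86%), beside 9.87%, 6.86% and 6.02%. Matches of different motifs overlapped in 4 windows. The shares of the lower and the higher genes were thus near each other for each of the 3 motifs, and a match is a description of the letters alone.

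A second set of lower genes had roles in iron uptake, matrix turnover and metabolism. Tfrc, the transferrin receptor, gave 17795 (WT) and 2962 (KO) under vehicle and 14744 and 2691 under lipid A, so that both WT arrays were far above both KO arrays. Its other 2 detected probe sets gave a median of 3.79-fold under vehicle, with background raised. The other iron genes did not pass 2-fold, with Flvcr1, a heme exporter, 1.89-fold lower and the list at a median of -0.42. Met, the receptor of hepatocyte growth factor, was 13.6-fold lower (7735 against 568), with at least 3.86-fold from its other probe set, and Tmem178 12.7-fold. Mmp14, a membrane-bound matrix protease, gave 5026 and 414, and Ly75, an endocytic receptor, 2669 and 219.7. In the lipid A pair Tmem178 and Ly75 had log2 differences of -2.88 and -1.50, and Met and Mmp14 were within 2-fold at -0.81 and -0.89. Fblim1, an adaptor of cell adhesions, was 8.89-fold lower, Hal, which degrades histidine, 7.04-fold, Gstm2, a glutathione transferase, 7.01-fold, and Cfb, complement factor B, 7.76-fold. Hp, which encodes the hemoglobin-binding protein haptoglobin, was at background in KO vehicle and at least 12.8-fold lower (1081 against 68.8), and it stayed there under lipid A (1543 in WT, 73.4 in KO). Cdkn1c, an imprinted cell cycle inhibitor, gave 6422 and 1399 under vehicle and 4425 and 772 under lipid A. Pla2g7, which degrades platelet-activating factor, was 4.04-fold lower (26079.5 against 6452), and Abca1, a cholesterol exporter, 3.26-fold. E2f8, a repressor of cell cycle genes, was 7.31-fold lower (629.9 against 86.2). The remaining bounds were Igfbp7 (at least 5.36-fold), Il1rl2, the interleukin-36 receptor (at least 5.10-fold), the glycine transporter Slc6a9 (at least 3.60-fold), the matrix protein gene Agrn (at least 3.30-fold) and the noncoding RNA Morrbid (at least 3.07-fold), of which Slc6a9 had another detected probe set with the opposite sign. In the lipid A pair Igfbp7, Il1rl2 and Slc6a9 were lower in KO as well (-1.55, -0.62 and -0.86 on the log2 scale), whereas Agrn and Morrbid were higher (1.61 and 0.23).

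The difference of the same genes in the lipid A pair, which shares no array with the vehicle pair, is given beside these values. Whether the same mice gave the cells of both treatments is not stated in the labels or methods. Over all 12334 genes detected there, 4.28% were over 2-fold higher in KO and 3.92% were over 2-fold lower. Of the 145 genes higher under vehicle, 140 were detected in the lipid A pair, where 96 were over 2-fold higher, 0 were over 2-fold lower and 44 passed neither. Their median log2 difference was 1.93 under vehicle (all 145) and 1.50 under lipid A (the 140). Of the 75 lower genes, 38 were over 2-fold lower under lipid A, 4 were over 2-fold higher and 33 passed neither, with medians of -2.19 and -1.08. Genes lower under vehicle and within 2-fold under lipid A included Acod1, Clec4e and Cxcl3, given above, and Cxcl2 (52796 in WT, 87996 in KO), Ccl5 (27849, 53151), Tlr2 (20659, 20412), Gbp2 (22755, 24431), Rtp4 (23449.5, 22934) and the cystine transporter gene Slc7a11 (6554, 6191). Of 29 interferon-stimulated genes detected under lipid A, 6 were over 2-fold lower in KO and 0 were higher, with a median of -0.45. Bst2 and Ifit2 were among the 6, at -1.33 and -1.33 on the log2 scale. Hp, Hal, Fblim1, Mmp8 and Gstm2 kept log2 differences of -4.35, -4.07, -3.53, -3.43 and -2.80, of which those of Hp and Fblim1 are bounds.

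**Figure D4:**
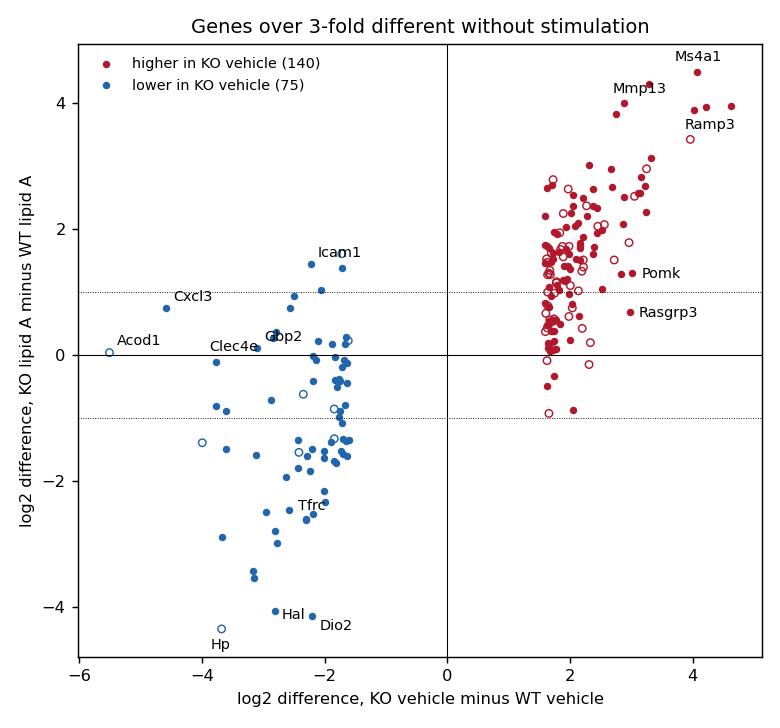
Log2 of the KO over WT signal under vehicle (x axis) and under lipid A (y axis) for the genes over 3-fold different under vehicle that were also detected in the lipid A pair, 140 higher (red) and 75 lower (blue), with open points where 1 vehicle array was at background. Dotted lines mark 2-fold under lipid A, and the blue points run from Agrn at 1.61 down to Hp at -4.35 on the y axis, while 96 of the red points lie above the upper dotted line.

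Some genes of transcription, growth and the cell cycle were also higher in KO vehicle. Of 23 detected immediate early genes, 8 passed 2-fold upward in KO and 1 downward. Their median was 0.66, and 0.29 with arrays centred on all probe sets. Egr1 gave 132 and 420.1, Fos 1416 and 3639.6, Myc 222 and 569, and Klf2 231 and 586, in WT and KO vehicle. Fos and Klf2 were lower in KO under lipid A, with log2 differences of -1.69 and -0.63. Of 14 D cyclins, their kinases and inhibitors, 5 were higher and 1 was lower. Beside Cdkn2a these were its neighbour Cdkn2b (96.8 against 239), the cyclins Ccnd2 (at least 3.92-fold) and Ccnd1 (2.77-fold) and the inhibitor Cdkn1a (2.01-fold), against Cdkn1c in the other direction. Genes of S phase and mitosis had 2 of 22 over 2-fold higher, Aurka and Nusap1, both from background, and Pcna, the DNA polymerase clamp, gave 12806 and 20908. In the lipid A pair Aurka and Nusap1 had log2 differences of 0.43 and -0.23. The inhibitors of differentiation Id3 (254 against 783) and Id1 (at least 2.55-fold) and the factors Irf4 (at least 3.07-fold) and Batf3 (2.15-fold) were higher among 28 transcription factors of macrophages, with 5 higher and 0 lower. Spi1, the master factor of the lineage, was 1.49-fold higher, and Cebpb 1.44-fold lower.

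Gata6 was the fifth higher member. Growth factor and matrix genes had 5 of 16 detected members higher and 1 lower. Besides Fn1 and Tgfb2, these were Thbs1 (thrombospondin, 3.99-fold), Igf1 (2221 against 5263) and Pdgfb (2.00-fold), while Inhba, which encodes a subunit of activin, was 2.28-fold lower. Complement receptors C5ar1 and C3ar1 were 3.69-fold and 2.31-fold higher. Of 15 genes of prostaglandins and leukotrienes, 2 were higher and 3 lower, with prostacyclin synthase Ptgis at 240.3 and 1386, the prostaglandin E2 receptor Ptger4 2.82-fold higher and its relative Ptger2 2.24-fold lower. Among MHC class II genes, H2-DMb2 (4.15-fold), H2-Ob (at least 3.11-fold) and H2-Oa (at least 3.04-fold) were higher. H2-Ob and H2-Oa are known mainly from B cells, whose markers were higher on the same array, and a link was not tested. The classical chains H2-Ab1 and H2-Aa were 1.03-fold and 1.05-fold higher. Adam8, a membrane protease, was 3.95-fold higher, and Itga6, a laminin receptor chain, 3.73-fold.

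Targets of the oxidative stress factor Nrf2 lay toward the lower side, with a median of -0.63, 2 of 13 over 2-fold lower and 1 higher. Slc7a11, the cystine transporter, gave 2658 and 602, Nqo1 926 and 426, and Gclm, a subunit that makes glutathione, 10779.6 and 5642, whereas the metallothionein Mt2 was 2.79-fold higher. Targets of LXR and PPAR had a median of 0.41, of which 0 were over 2-fold higher and Abca1 alone lower, and that median was 0.04 with arrays centred on all probe sets. Housekeeping and metabolic groups showed little difference. None of 25 lysosome and autophagy genes, 21 genes of glycolysis and hypoxia, 17 of the citric acid cycle and respiratory chain, 17 of cholesterol synthesis, 15 of the unfolded protein response, 10 heat shock and 18 apoptosis genes passed 2-fold in either direction. Their medians lay between -0.06 and 0.13, and between -0.43 and -0.24 with arrays centred on all probe sets. The 11 ribosomal protein genes had a median of 0.37, near the shift of the array medians, and this median ranged from -0.003 to 0.40 over the settings. Fc receptor genes had a median of 0.03, or -0.35 under that centring, with 0 of 7 over 2-fold different.

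**Figure D5:**
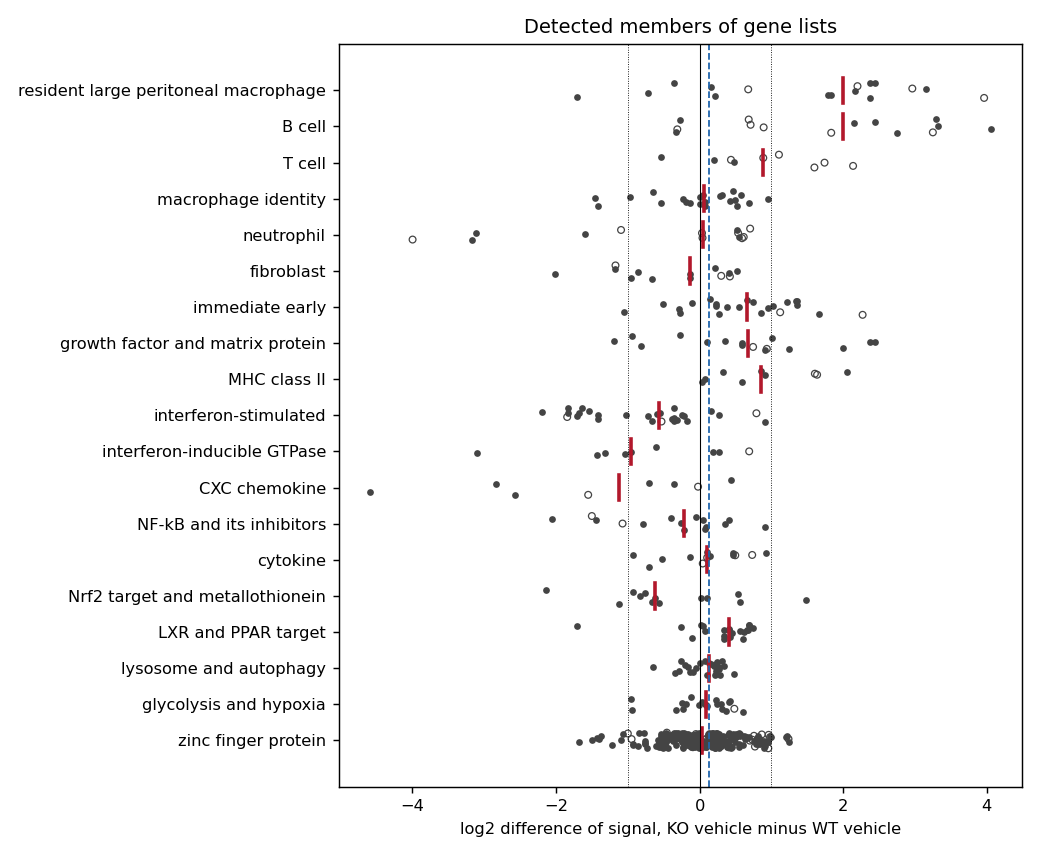
Log2 difference of signal between KO vehicle and WT vehicle (x axis) for the detected members of 19 gene lists, with 1 point per gene, filled when both arrays reached their median and open when 1 did not. Red bars are the list medians, the dashed blue line is the median of all detected genes at 0.13, and the bars run from 1.99 for resident large peritoneal macrophage and B cell genes to -1.12 for CXC chemokines.

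Other probe sets of the same genes gave a check within the arrays. Of the 145 higher genes, 50 had another detected probe set, and the median of these had the same sign in 46 and passed 3-fold in 15. Of the 75 lower genes, 31 had one, with the same sign in 23 and over 3-fold in 15. The sign was opposite in Dis3l2 and St3gal6 on the higher side and in Efhd2, Prim2, Psrc1 and Slc6a9 on the lower side. It was not read in 2 and 4 more genes, where raising a background signal turned it. The other detected probe set gave at least 1.54-fold for Ikzf3 and at least 1.39-fold for Igfbp7, and the 4 others of Ccnd2, 3 of them bounds, gave a median of 1.62-fold, all in the direction of the probe set used. Malat1, a long noncoding RNA of the nucleus, was 6.20-fold lower from its brightest probe set (24357 against 3929.9) but had a median log2 difference of -0.09 over its other 6 detected probe sets. At high signal the arrays were close. Among the 1000 genes of highest mean log2 signal over the vehicle arrays, a set chosen after values were seen, the median log2 difference was 0.03, 7 genes were over 2-fold higher in KO and 18 lower. Hgsnat, an enzyme of heparan sulfate breakdown in lysosomes, had the largest difference on the higher side (2582 against 11906), and S100a4 was 2.95-fold higher. Beside Clec4e, Tfrc and Pla2g7, the lower ones included Cybb, the catalytic subunit of the phagocyte oxidase (46571 against 16422), Sod2 (16042 against 6231) and Mfge8, which bridges phagocytes to dying cells (30967 against 11407). Cybb and Sod2 were within 2-fold under lipid A, with log2 differences of 0.09 and 0.30, and Mfge8 was at -1.84.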

How the data were processed

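Total RNA of peritoneal macrophages was hybridised to Affymetrix whole-genome mouse arrays, 1 for each of 4 conditions, of which the vehicle pair is compared here. The deposited unit is the intensity of each probe set on a linear scale. How the authors' processing made it is not stated in the labels or methods, and an equal mean of 500.004 after trimming 2% at each end of each array was read as a global scaling. The number of arrays limits the precision.

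Of 45101 rows, 64 controls were left out. The platform annotation as supplied names 1 gene for 34945 probe sets, several for 932 and none for 9160, and 34741 matched a RefSeq gene number. Probe sets with 1 symbol gave 18193 genes. Thresholds were over 3-fold and, within lists, over 2-fold. The study set 3-fold between KO and WT for genes that lipid A had raised, together with detection and increase calls that were not used here, whereas here it was set for all genes. The 60 gene lists hold 946 genes, 844 of them measured, matched by symbol or synonym. The members and lists were chosen with earlier results of these data known. Genes were named as Setdb1 and Lyz2, the 15 largest differences and 10 largest bounds in each direction, up to 5 members of a list with the largest differences, and neighbours over 2-fold different. All other genes with values, list members included, were named after their values were seen. No p-value was computed. Neighbours are the 20 nearest measured genes on each side in the RefSeq table.

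8 alternatives covered array scaling, background, detection and probe set choice. Python 3.11.15, numpy 2.4.6, pandas 2.3.3 and matplotlib 3.10.9 were used.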

Additional observations from a re-analysis of the deposited data

Results flagged for a closer look

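In 4 of the 75 genes lower in KO vehicle, the difference had the opposite sign in the lipid A pair and passed 2-fold there. The log2 difference, KO minus WT, was -2.23 under vehicle and 1.44 under lipid A for Icam1, -2.06 and 1.03 for Nfkbiz, -1.72 and 1.61 for Agrn, and -1.71 and 1.38 for Serpinb2. Each value rests on 1 array per condition, and the 4 genes were picked by these values. The other 2 detected probe sets of Nfkbiz gave a median of -0.26 under vehicle, with background raised. The difference between the treatments was not tested.

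Probe sets that carry no gene symbol were outside the comparison. Of 10092 such probe sets or probe sets with several symbols, 3781 were detected under vehicle, of which 44 (1.16%) were over 3-fold higher in KO and 19 (0.503%) lower. The largest differences on the higher side were 1456182_x_at, with 2154 in KO vehicle and 43.2 in WT vehicle, and 1433438_x_at, with 1679 and 21.9. Both were also far apart in the lipid A pair, with 1790.1 in KO and 8.73 in WT for the former and 1208 and 1.52 for the latter. On the lower side 1437014_x_at gave 42876 in WT vehicle and 4838 in KO vehicle.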

How the results depend on the processing

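Each difference rests on 1 array per genotype, so neither mice nor arrays were replicated, and near background the signal limits what a fold can show. No paired analysis was possible because each condition has 1 array and no test was made. Against 145 genes over 3-fold higher, 75 lower, 627 over 2-fold higher and 247 lower, arrays centred on the median of all probe sets gave 70, 145, 241 and 690. Quantile normalization gave 87 higher at 3-fold and 329 at 2-fold. Signals taken as measured, background included, gave 754, 438, 1332 and 740. Requiring both signals at or above the array median gave 94 and 344 higher at 3-fold and 2-fold, and requiring the higher signal at 2 times the median gave 408 higher at 2-fold. The median log2 difference of the detected genes ranged from -0.24 with arrays centred on all probe sets to 0.13 as reported. The remaining counts stayed within 1.5 times those reported, but the genes behind a similar count can differ. With all probe sets of a gene averaged, 161 genes were over 3-fold higher and 96 lower. Only 90 and 55 of these were among the 145 and 75 reported. Without the _x_at and _s_at probe sets, 134 of 135 higher and 69 of 74 lower genes were among those reported.

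Of 439 values of named genes under the alternatives, 401 stayed within the spread between probe sets, 35 moved by more and 3 changed sign. The last were Slc6a9 at 0.21 with quantile normalization, and E2f8 at 0.25 and Sema6c at 0.26 with all probe sets of a gene averaged. For E2f8 and Sema6c the sign came from raising the KO background to its array median, since their averaged signals were 71.0 and 70.2 in WT and 14.4 and 38.7 in KO. Of 410 list medians, 388 stayed within that spread and 22 moved by more. That spread is wider than the 0.37 by which centring on all probe sets lowers each log2 difference. A value moved by that centring alone thus counts as within it, even where its sign changes. The spread is also one of single genes and not of list medians, so these counts do not show that list medians are stable. Beyond the centring itself, the cause of the moves was not tested.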
